A study of Mus musculus with 2 samples.

Results

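The genes described here are the collagen genes outside collagen IV: all protein-coding genes on mouse chromosomes 1 to 19 with a symbol of the form Col, number, a, number, except Col4a1 to Col4a6. The rule found 38 such genes among 21938 protein-coding genes, and 95 of 43988 EP300 peaks were assigned to them. EP300 is a lysine acetyltransferase and coactivator that DNA-bound transcription factors bring to active enhancers and promoters. The lungs came from mice of strain B6NCrl at postnatal day 0, and DNA recovered with an EP300 antibody was sequenced (ChIP-seq). The data held 2 libraries of 1 group, with no second genotype, treatment or stage, so no test between conditions could be made and all comparisons between genes are descriptions. The libraries are labelled biological replicates 1 and 2, yet their donor and biosample entries are identical, and differences between them may therefore be technical. Sex was not collected, and a possible control experiment named in the labels was not analysed here. The tissue was labelled lung, with no cell type, so a site cannot be placed in a cell type, and fewer cells of a type and less EP300 per cell cannot be told apart.

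Collagens are extracellular proteins whose alpha chains wind around each other into a rod-like helix. Fibrillar collagens (types I, II, III, V, XI, XXIV and XXVII) form the tensile fibres of connective tissue, and types I and III are the main ones of lung interstitium and vessel walls. FACIT collagens lie on the surface of such fibres, network collagens other than IV (VIII and X) form sheets, and transmembrane collagens span the plasma membrane. Collagen VI forms beaded filaments between fibres and basement membranes, multiplexins (XV and XVIII) sit at basement membranes, and collagen VII forms the anchoring fibrils of epithelia. Types XXVI and XXVIII stand apart from these groups.

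The values come from the authors' optimal set of reproducible peaks on the mm10 build, with the strongest 43988 peaks of each library's own list beside it. A peak was assigned to the protein-coding gene whose transcription start site (TSS) was nearest to its summit, within 100 kb. Proximity is no measure of which gene a site regulates. The signal value is the authors' own measure of each peak and serves here to rank and describe peaks. Sequencing depth was unknown, as peak lists carry no reads.

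Genes of lung cells carried peaks. The marker lists were chosen with earlier results of these data known, so their shares are descriptions and no independent check. All 12 lung cell markers had an assigned peak, with a median of 7 peaks, led by Hopx and Sftpb with 18 each and Kdr with 15, and all 12 fibroblast and mesenchyme markers had one, with a median of 3, beside 46.8% of all protein-coding genes with a peak. Of the cartilage markers, 5 of 12 had a peak (41.7%), a share near that of all genes, and Acan, Comp, Matn1, Snorc, Chad, Epyc and Sox9 had none in the optimal set. Sox6 held 8 of the 15 cartilage marker peaks. Per 100 kb of the sequence nearest to their start sites, the cartilage markers had 0.849 peaks, below the 2.29 of all genes. Hepatocyte markers had a peak at 2 of 10 genes and muscle markers at 3 of 10, with 0.887 and 1.04 peaks per 100 kb.

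The sequences below are the central 100 bp of 12 sites: the 5 strongest of the family and the strongest site of Col6a1, Col15a1, Col1a1, Col5a2 and Col18a1, and of the leading FACIT and transmembrane genes, Col14a1 and Col13a1. They are the plus strand of the GRCm38.p6 reference, and capitals mark matches to the consensus sequences named further on.
Col6a2, 10.6 kb upstream (chr10:76634135-76634234): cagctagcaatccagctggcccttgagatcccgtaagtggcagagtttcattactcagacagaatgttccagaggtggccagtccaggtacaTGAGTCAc
Col6a2, 12.6 kb upstream (chr10:76636168-76636267): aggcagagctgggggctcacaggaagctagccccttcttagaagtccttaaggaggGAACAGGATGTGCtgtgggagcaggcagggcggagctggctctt
Col6a2, 51.1 kb upstream (chr10:76674721-76674820): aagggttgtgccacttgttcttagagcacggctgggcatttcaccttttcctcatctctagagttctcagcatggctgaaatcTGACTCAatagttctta
Col6a1, 50.7 kb downstream (chr10:76675466-76675565): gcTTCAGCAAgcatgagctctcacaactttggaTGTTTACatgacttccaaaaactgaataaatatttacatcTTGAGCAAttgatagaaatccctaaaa
Col3a1, past the 3′ end (chr1:45356166-45356265): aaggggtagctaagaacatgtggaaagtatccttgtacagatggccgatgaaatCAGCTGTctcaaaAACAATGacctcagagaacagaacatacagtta
Col6a6, intron (chr9:105764226-105764325): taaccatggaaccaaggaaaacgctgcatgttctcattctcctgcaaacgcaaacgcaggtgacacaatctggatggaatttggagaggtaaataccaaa
Col15a1, intron (chr4:47294045-47294144): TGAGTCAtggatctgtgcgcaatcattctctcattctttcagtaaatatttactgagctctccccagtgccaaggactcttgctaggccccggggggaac
Col1a1, 19.5 kb upstream (chr11:94916676-94916775): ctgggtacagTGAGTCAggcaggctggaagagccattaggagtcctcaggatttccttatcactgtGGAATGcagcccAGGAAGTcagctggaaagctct
Col5a2, 38.1 kb upstream (chr1:45541322-45541421): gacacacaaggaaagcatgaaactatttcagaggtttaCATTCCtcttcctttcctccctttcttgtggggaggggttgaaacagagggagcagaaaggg
Col18a1, 40.3 kb upstream (chr10:77206751-77206850): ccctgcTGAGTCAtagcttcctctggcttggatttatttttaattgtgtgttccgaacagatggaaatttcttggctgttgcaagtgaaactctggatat
Col14a1, intron (chr15:55484258-55484357): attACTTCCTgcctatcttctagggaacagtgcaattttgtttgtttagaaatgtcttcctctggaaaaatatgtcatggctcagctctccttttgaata
Col13a1, intron (chr10:61921121-61921220): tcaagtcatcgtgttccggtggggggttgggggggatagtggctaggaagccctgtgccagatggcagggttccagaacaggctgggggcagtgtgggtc
The Col6a2 sites at 10.6 and 51.1 kb held AP-1 letters, and the one at 12.6 kb held those of a glucocorticoid response element (GRE). Col15a1 and Col18a1 likewise held AP-1 letters, and the Col1a1 site held AP-1, TEAD and ERG-type ETS letters. The Col3a1 site held SOX and TCF21-type E-box letters, the Col6a1 site FOX and CEBP letters and the Col5a2 site TEAD letters. The Col14a1 site held ERG-type ETS letters. The Col6a6 and Col13a1 sites held no match.

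Of the 38 genes, 23 had at least 1 assigned peak (60.5%), against 46.8% of all protein-coding genes. Replicate 1 alone gave 24 and replicate 2 alone 23, and 22 genes had a peak in the optimal set and in both libraries. The collagen genes had a mean of 2.50 ± 3.20 peaks and a median of 1 (SD over 38 genes), against 1.67 ± 3.36 and a median of 0 over all genes. They also lie in larger stretches of sequence: the median territory, the bases within 100 kb that are nearest to a TSS of the gene, was 135 kb, against 46.2 kb over all genes. Per 100 kb of territory the collagen genes had 1.91 peaks, against 2.29 over all genes. The family was thus above all genes per gene and below them per length of sequence. In signal the family was near the rest, with a median value of 47.1 over its 95 peaks and 48.4 over all assigned peaks.

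Peaks were unevenly spread over the family. At least 5 peaks were assigned to 7 genes (18.4%), against 10.9% of all genes, 2 to 4 peaks to 11 genes, 1 peak to 5 genes and none to 15 genes. The 6 genes with most peaks, Col6a2 (11), Col13a1 and Col14a1 (10 each), Col6a1 (9), Col15a1 (7) and Col12a1 (6), held 55.8% of the family's peaks. The lead of Col6a2 depended on overlapping peaks being counted apart. With these merged, the family had 88 peaks: 10 at Col14a1, 9 at Col13a1, 8 each at Col6a2 and Col6a1, 7 at Col15a1 and 5 at Col12a1. The neighbours Col6a1, Col6a2 and Col18a1 on chromosome 10 held 25 of the 95.

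**Figure D1:**
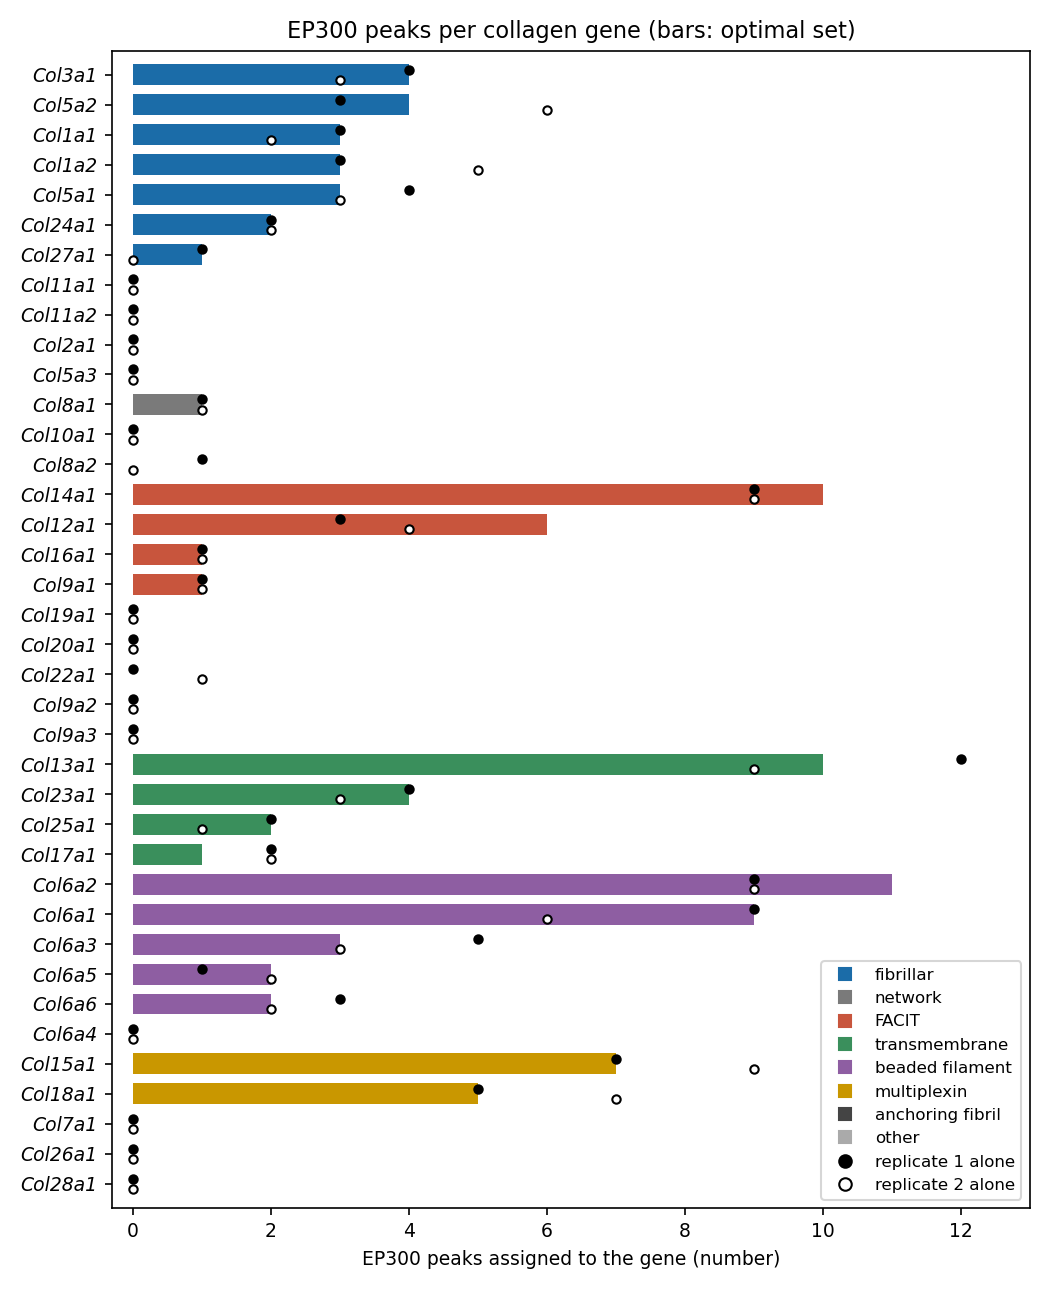
EP300 peaks assigned to each of the 38 collagen genes, ordered by collagen type. Bars give the optimal set and points the strongest 43988 peaks of each library alone; Col6a2 has 11 peaks in the optimal set and 9 in either library, and 15 genes have no bar.

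Most sites lay away from the start of the gene. Of the 95 peaks, 54 lay in no protein-coding gene, 38 within the collagen gene itself and 3 within another gene only. Introns held 39 peaks, untranslated regions 2 and coding sequence 0. The same placement was not computed for all optimal peaks, so these counts have no comparison. The median distance from summit to TSS was 35.4 kb, against 14.7 kb for all assigned peaks. This distance is limited by the size of the territory, with a median of 135 kb against 46.2 kb over all genes. The part of gene spacing in it was not tested. Within 10 kb of a TSS, 11 of the 38 genes had a peak, against 33.5% of all genes. A promoter peak, with its summit within 1 kb of a TSS, was found at 5 genes (13.2%), against 19.6% of all genes. Of the 95 peaks, 5.26% were promoter peaks, against 13.3% of all optimal peaks, with no adjustment for territory. The conservative set gave 7 collagen genes with a promoter peak, and the share of all genes was not computed in that set.

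**Figure D2:**
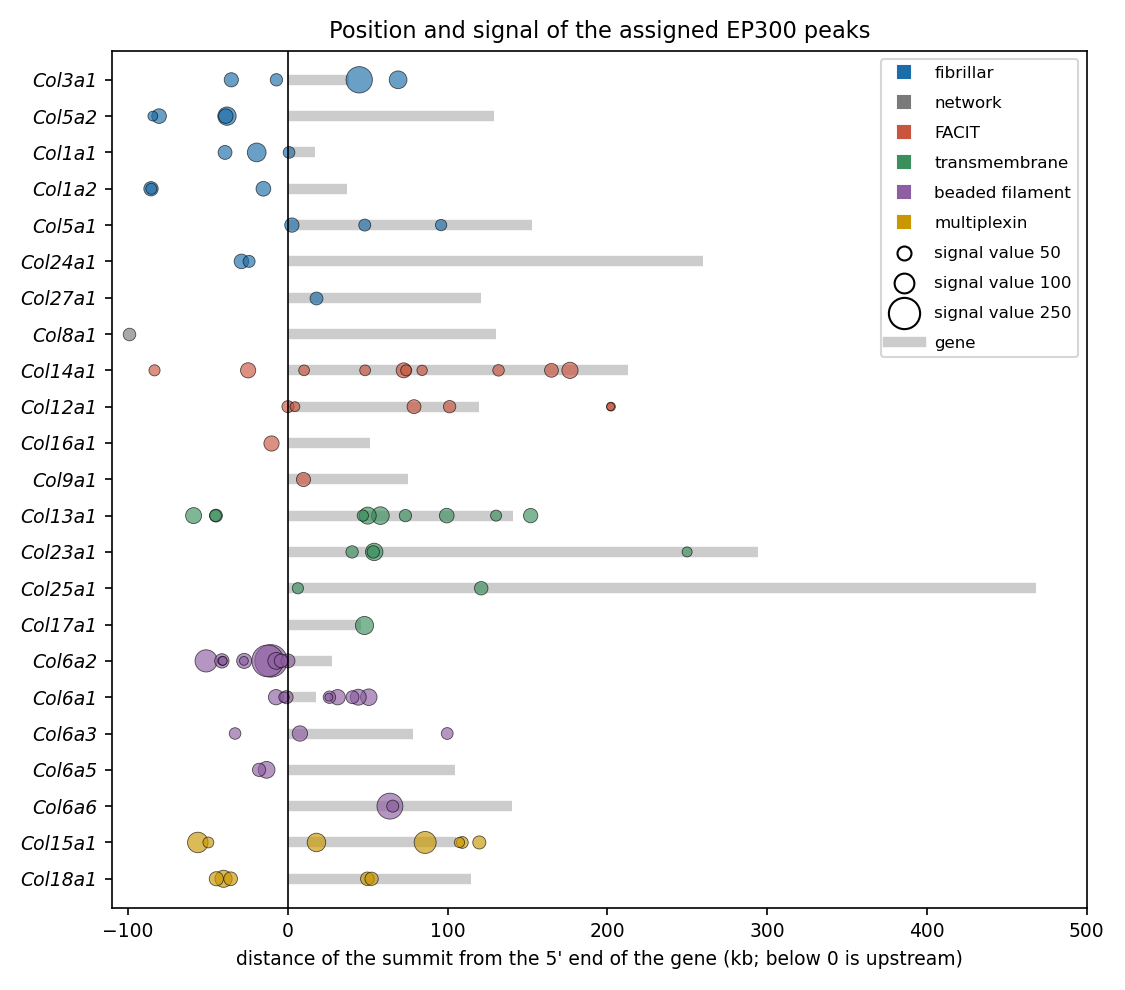
Position of each assigned peak relative to the 5′ end of its collagen gene in kb, for the 23 genes with a peak. Point area is proportional to the signal value and grey bars are the genes; the Col6a2 peaks of 270 and 259 lie just upstream of that gene, while those of Col14a1 lie mostly within it.

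Beaded filament collagens carried the 2 strongest sites. Collagen VI genes had 27 peaks over 6 genes, 27 in replicate 1 and 22 in replicate 2, and 3.93 peaks per 100 kb of territory, against 2.29 over all genes. Col6a1 and Col6a2 encode the alpha 1 and alpha 2 chains of collagen VI, which assemble with the product of Col6a3, and both are read from the minus strand of chromosome 10. Between the genes lie 85.2 kb that are upstream of Col6a2 and downstream of Col6a1. This interval held 16 peaks, of which 10 were assigned to Col6a2 and 6 to Col6a1 by distance alone, so their separate counts do not tell the genes apart. It had 14 peaks in replicate 1 and 12 in replicate 2.

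The strongest collagen peak (chromosome 10, 76634084 to 76634300) had a signal value of 270 and lay 10.6 kb upstream of Col6a2. It held rank 709 in replicate 1 with a signal value of 128, and rank 239 in replicate 2 with 139. The next one (76636134 to 76636277) lay 12.6 kb upstream, with a signal value of 259, rank 370 in replicate 1 and rank 526 in replicate 2. Another (76674559 to 76674982), with a signal value of 127, lay 51.1 kb upstream of Col6a2 and 51.4 kb from the TSS of Col6a1, nearly midway. The strongest peak assigned to Col6a1 (76675304 to 76675727) had a signal value of 70.3. Counts were 9 and 9 for Col6a2 and 9 and 6 for Col6a1 in replicates 1 and 2. Both genes had a promoter peak: that of Col6a2 (76623316 to 76623739, signal value 49.4) lay 0.102 kb downstream of the TSS, in the untranslated region, and that of Col6a1 (76726758 to 76727181, 44.2) lay 0.802 kb upstream.

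The other collagen VI genes had fewer peaks. Col6a3, which encodes the large alpha 3 chain, had 3 in the optimal set and in replicate 2 but 5 in replicate 1, the strongest in its intron with a signal value of 60.4. Col6a6 had 2, and its stronger one (chromosome 9, 105764204 to 105764349) had a signal value of 172 and lay in an intron, at ranks 1694 and 2008 in replicates 1 and 2. Col6a5 had 2, both upstream of the gene, and Col6a4 had 0.

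Fibrillar collagen genes had a median of 2 peaks and a mean of 1.82, against 0 and 1.67 over all genes. Those for collagens I and III were among the ones with a peak. Of 11 genes, 7 had a peak (63.6%), against 46.8% of all genes. The type had 20 peaks in all, 20 in replicate 1 and 21 in replicate 2. No fibrillar gene had more than 4 in the optimal set, and per 100 kb of territory the type had 1.36 peaks, against 2.29 over all genes. Col1a1, which encodes the main chain of collagen I, had 3 peaks in the optimal set, 3 in replicate 1 and 2 in replicate 2. The strongest (chromosome 11, 94916514 to 94916937, signal value 90.2) lay 19.5 kb upstream at rank 9145 in replicate 1 and 8162 in replicate 2. Its promoter peak (94936756 to 94937179, 35.2) lay in an intron 0.744 kb downstream of the TSS and was not among the strongest peaks of replicate 2, where it held rank 52453. Col1a2, for the partner chain, had 3 peaks, all upstream, the strongest (chromosome 6, 4489310 to 4489733, 55.7) at 15.3 kb. The remaining pair, 85.6 and 85.4 kb upstream, overlapped each other. Col1a2 had 3 peaks in replicate 1 and 5 in replicate 2.

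Col3a1 and Col5a2, for chains of collagens III and V, face each other on chromosome 1 with 24.6 kb between their 3′ ends. The strongest fibrillar peak (45356004 to 45356427) lay in this gap, with a signal value of 178 and ranks 1757 and 1545 in replicates 1 and 2. It was assigned to Col3a1, whose 5′ end was 44.7 kb away and whose nearest annotated start was 16.3 kb away. A second Col3a1 peak (45380322 to 45380745, 80.8) lay inside Col5a2. The 4 peaks assigned to Col5a2 all lay upstream of it, the strongest (45541160 to 45541583, 86.5) at 38.1 kb, and its count was 3 in replicate 1 and 6 in replicate 2. Col5a1, for the main chain of collagen V, had 3 peaks in its introns, the strongest (chromosome 2, 27888749 to 27889172, 52.4) 2.54 kb from the TSS.

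The minor and cartilage fibrillar genes had little. Col24a1 had 2 peaks upstream, the stronger (chromosome 3, 145263227 to 145263650) with a signal value of 54.5. Col27a1 had 1 (chromosome 4, 63231155 to 63231578, 42.5), which was not among the strongest peaks of replicate 2. Col2a1 and Col11a1, for chains of the fibres of cartilage, and Col11a2 and Col5a3 had 0 in the optimal set and in both libraries. Their territories differed in size, and a small one leaves little room for a peak. They were 61.7 kb for Col2a1, 200 kb for Col11a1, 30.1 kb for Col11a2 and 36.1 kb for Col5a3, beside the family's median of 135 kb.

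FACIT genes were split between a peak-rich pair and the rest. Of 9 genes, 4 had a peak, with 18 peaks in all, and 16 of these belonged to Col14a1 and Col12a1, whose products decorate collagen I fibrils. Col14a1 had 10 peaks, 9 in either library, of which 8 lay in its introns. The highest signal value at Col14a1 was 67.4 (chromosome 15, 55484096 to 55484519), beside a median of 48.4 over all assigned peaks. Col12a1 had 6 peaks in the optimal set but 3 in replicate 1, 4 in replicate 2 and 3 in the conservative set, with a highest signal value of 49.6 (chromosome 9, 79639649 to 79640072). Its promoter peak (79718579 to 79719002) had a signal value of 36.9. A pair of its peaks overlapped each other 96.3 and 96.1 kb from an annotated start, with signal values of 20.2 and 15.9, and neither was matched in replicate 1. With the 5′ end of each gene as its only TSS, Col12a1 had 3. Col9a1 and Col16a1 had 1 peak each. Col9a2, Col9a3, Col19a1, Col20a1 and Col22a1 had 0, although Col22a1 had 1 in replicate 2 and 1 in the conservative set. The territories of Col9a2, Col9a3 and Col20a1 were small, at 39.2, 26.9 and 42.0 kb. The median signal value of FACIT peaks was 35.5, against 51.9 for fibrillar peaks, and 8 of 18 FACIT peaks were matched in both libraries, against 13 of 20 fibrillar ones.

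All 4 transmembrane genes had a peak, 17 in all, with 20 in replicate 1 and 15 in replicate 2. Col13a1 had 10 of these, 12 in replicate 1 and 9 in replicate 2, with 6 inside the gene. Its strongest peak (chromosome 10, 61920959 to 61921382) had a signal value of 79.8 and lay in an intron 57.9 kb from the 5′ end. Col23a1 had 4, Col25a1 2 and Col17a1, for a collagen of the junction between epithelium and basement membrane, 1. The single Col17a1 peak lay in the untranslated region of the neighbouring gene Slk, and either library alone gave Col17a1 2 peaks. None of these genes had a promoter peak or any peak within 10 kb of a protein-coding transcript's start.

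Sites deep inside these long genes fell outside the assignment. Gene bodies of the family held 52 peaks, of which 14 were not assigned to the gene, 13 for lying over 100 kb from any TSS. Col25a1 held 6 of these and Col23a1 held 3. The strongest, inside Col23a1 (chromosome 11, 51396544 to 51396689), lay 107 kb from the nearest start, with a signal value of 186, above that of any transmembrane gene's assigned peak. Col24a1 held 2, and Col11a1 and Col28a1, which had no assigned peak, held 1 each.

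The network genes had 1 peak over 3 genes. It was assigned to Col8a1, for a collagen of vessel walls, from 99.2 kb upstream (chromosome 16, 57853773 to 57854196, signal value 40.4), just inside the 100 kb limit. Col8a2 had 0, with 1 in replicate 1 alone, and Col10a1, a marker of hypertrophic cartilage, had 0 in the optimal set and in both libraries.

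Both multiplexin genes had peaks, 12 in all, with 12 in replicate 1 and 16 in replicate 2. Col15a1 had 7 peaks, 7 in replicate 1, 9 in replicate 2 and 10 in the conservative set. The strongest (chromosome 4, 47293883 to 47294306, signal value 124) lay in an intron 5.81 kb from an internal start and 85.9 kb from the 5′ end, at ranks 3522 and 4621 in replicates 1 and 2. A second (47151603 to 47152026, 108) lay 56.3 kb upstream. With the 5′ end of the gene as its only TSS, Col15a1 had 3 peaks. Col18a1, whose product is the source of endostatin, had 5, of which 3 lay between 35.8 and 44.8 kb upstream. The strongest (chromosome 10, 77206589 to 77207012) had a signal value of 74.9. Its promoter peak (77113916 to 77114339, 45.4) lay at an internal start, 52.4 kb from the 5′ end. Col7a1, Col26a1 and Col28a1 had 0 in the optimal set and in both libraries, and the territory of Col7a1 was only 19.4 kb.

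Set side by side, the collagen types differed in their counts, and no test was made between these groups of 2 to 11 genes. Genes with a peak were 7 of 11 fibrillar, 1 of 3 network, 4 of 9 FACIT, 4 of 4 transmembrane, 5 of 6 beaded filament and 2 of 2 multiplexin, beside 46.8% of all genes. The mean number of peaks was 1.82 ± 1.66 for fibrillar, 0.333 ± 0.577 for network, 2.00 ± 3.57 for FACIT, 4.25 ± 4.03 for transmembrane, 4.50 ± 4.42 for beaded filament and 6.00 ± 1.41 for the 2 multiplexin genes (SD over genes). The spread was close to or above the mean in every type except the multiplexins. Per 100 kb of territory the values were 1.36 for fibrillar, 0.380 for network, 1.39 for FACIT, 2.54 for transmembrane, 3.93 for beaded filament and 3.53 for multiplexin genes, against 2.29 for all genes. In each library alone the beaded filament and multiplexin values stayed above, and the fibrillar, network and FACIT values below, that of all genes. The transmembrane value was 2.99 in replicate 1 and 2.24 in replicate 2, on either side of 2.30 and 2.29 for all genes in those libraries. Most peaks of the beaded filament and transmembrane types lay at few genes: Col6a1 and Col6a2 held 20 of the 27 beaded filament peaks, and Col13a1 held 10 of the 17 transmembrane peaks. Without them, the 4 other collagen VI genes had 1.32 peaks per 100 kb and the 3 other transmembrane genes 1.56. These genes were left out after their counts were seen, which lowers the values by construction. The value of all genes keeps its own peak-rich genes, so it is no like comparison for these 2 values. With peaks counted by gene body, the order of the means changed: transmembrane genes had 5.25, multiplexins 2.00, FACIT genes 1.44, fibrillar genes 0.818 and beaded filament genes 0.667. A longer gene leaves more room for a peak, and these means were not adjusted for length. The transmembrane genes span 45.8 to 468 kb and the collagen VI genes 17.4 to 140 kb.

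**Figure D3:**
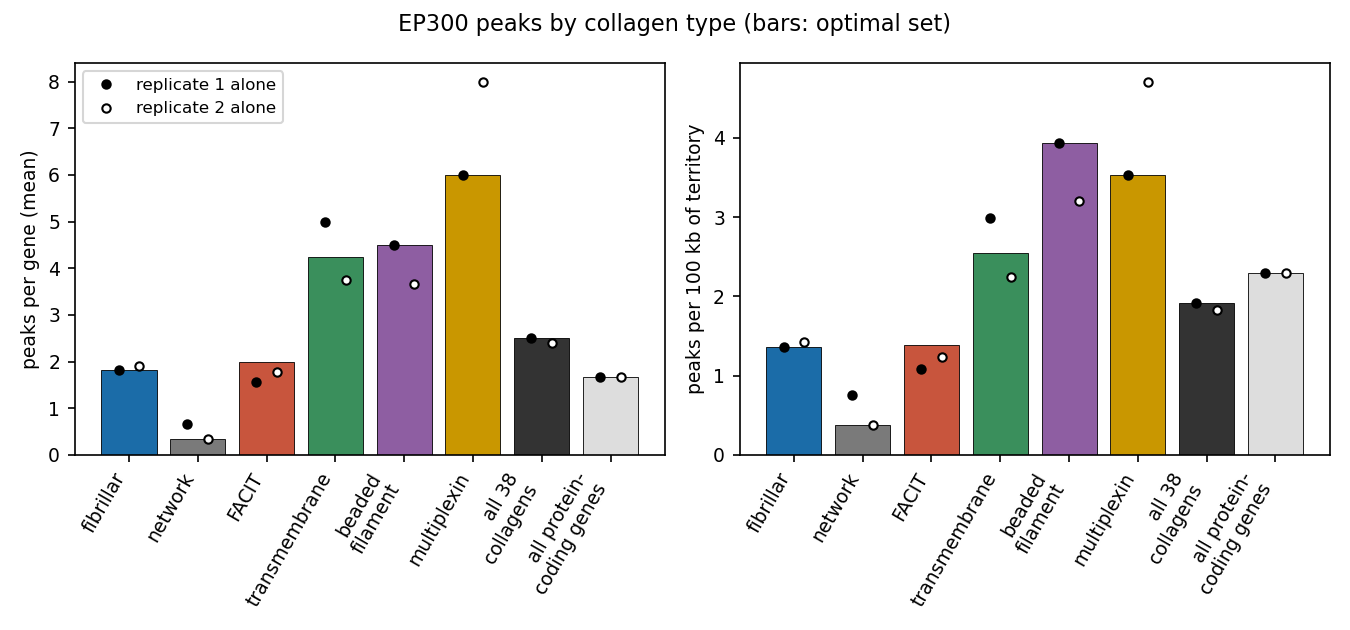
EP300 peaks by collagen type: mean number per gene (left) and number per 100 kb of gene territory (right). Bars give the optimal set and points each library alone; the 38 collagens lie above all protein-coding genes on the left (2.50 against 1.67) and below them on the right (1.91 against 2.29).

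Most collagen sites of the optimal set were matched in each library. That set was itself made from both libraries by reproducibility, so such matches are largely given in advance. Of the 95 peaks, 80.0% were matched within 100 bp of the summit by a strongest-list peak of replicate 1 and 71.6% by one of replicate 2, beside 78.8% and 74.4% of all optimal peaks. Both libraries matched 58 peaks, 1 library matched 28 and neither matched 9. All of the 10 strongest collagen peaks, with signal values of 86.5 or more, were matched in both. These counts were not computed over all optimal peaks. For the 80 peaks with a signal value in both full lists, the median log2 ratio of replicate 1 over replicate 2 was 0.54, and 75 lay within 2-fold of each other once this median was removed. Counts per gene were equal in the libraries for 20 of 38 genes, differed by 1 for 11 and by 2 or 3 for 7. Most of the 20 equal genes had no peak in either library, so their equality is no sign of shared sites. Those equal with a peak were Col6a2, Col14a1, Col17a1, Col24a1, Col8a1, Col9a1 and Col16a1. In all, 25 of the 38 genes had a peak in the optimal set or in a library alone.

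**Figure D4:**
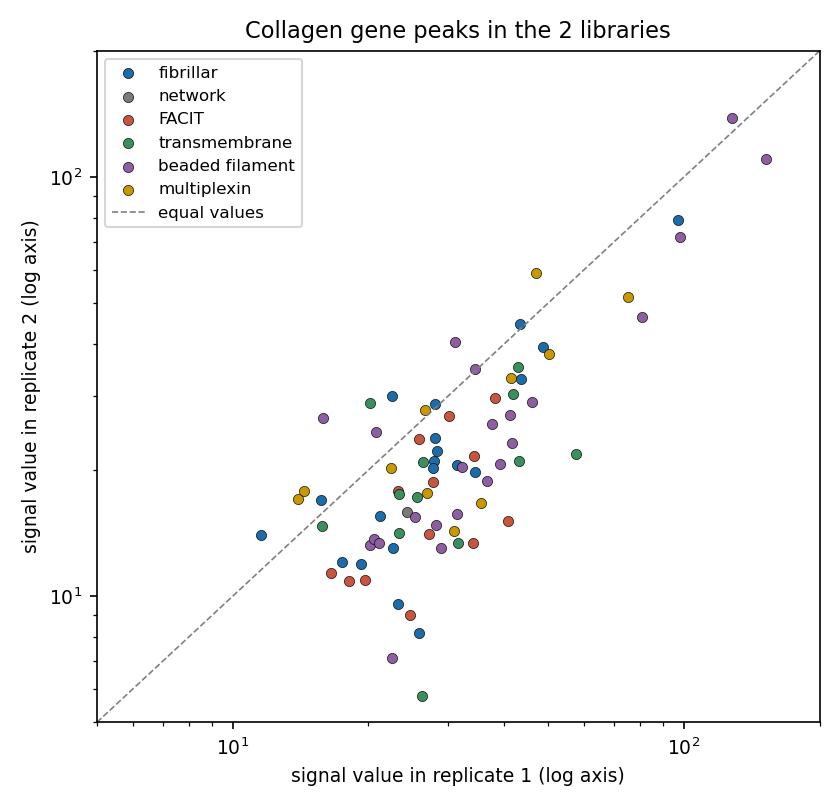
Signal value of 80 collagen gene peaks in replicate 1 and replicate 2, on log axes, coloured by collagen type. Most points lie below the line of equal values, as the median log2 ratio of 0.54 gives, and the 2 strongest, both upstream of Col6a2, are high in both libraries.

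The DNA at these sites was searched on both strands for 18 consensus sequences in the central 100 bp. The forkhead (FOX) sequence was spelled TGTTTAC, and that of TEAD factors, the partners of YAP, was spelled CATTCC. For the AP-1 dimers of FOS and JUN proteins the letters TGANTCA were used, where N is any base. The ETS family had an ERG type spelled AGGAAGT and a further type spelled CCGGAAG. For CEBP factors the letters were TTGCNNAA, while for the NKX2 family, which includes the lung regulator NKX2-1, they were CACTTNA. SOX factors were searched as AACAATG, whereas the E-box of the TCF21 type was searched as CAGCTGT. The GATA sequence was written as AGATAAG, and the one for STAT dimers was written as TTCCNGGAA. The SMAD sequence was taken as GTCTAGA, and the KLF and SP families were searched together as GGGCGGG. RUNX factors were given the letters TGTGGTT, and CREB factors were given the letters TGACGTNA. The GRE, the CTCF sequence and the NFI palindrome completed the set. In 1 of the 95 windows, matches to different sequences shared bases. At least 1 match was found in 57.9% of collagen windows, against 55.2% of all optimal peaks and 28.5% of windows 500 bp to either side of them.

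FOX letters, which forkhead factors bind, were in 12 of 95 windows or 12.6% (95% Wilson interval 7.38 to 20.8%, counting error only), beside 5.35% of all optimal peaks and 1.41% of flanking windows. The 12 windows were spread over 9 genes, with 4 in collagen VI genes, 3 in FACIT genes, 2 each in fibrillar and multiplexin genes and 1 in a transmembrane gene. TEAD letters were in 10.5% of collagen windows (11.7% of all peaks), AP-1 in 9.47% (7.67%), ERG-type ETS in 9.47% (7.68%), CEBP in 9.47% (8.70%) and NKX2 in 6.32% (9.85%). That order depended on the window and the peak set. In the central 200 bp, TEAD letters were in 20% of collagen peaks, AP-1 in 16.8% and FOX in 15.8%. In the conservative set AP-1 was in 12.8% and FOX in 11.7%. Shares over all peaks were not computed for either setting, so these values cannot be set against the 100 bp shares of all peaks. A longer window holds more matches by construction. Collagen peaks with AP-1 letters had a median signal of 90.2 over 9 windows, against 53.1 for all optimal peaks with them. For the other frequent sequences these medians were 49.3 against 57.3 for FOX, 49.2 against 55.1 for TEAD, 57.8 against 55.0 for ERG-type ETS and 44.2 against 50.8 for CEBP. GRE letters were in 2 windows (2.11%, beside 2.17% of all peaks), those of Col6a2 and Col23a1. SMAD letters were in 1 window (1.05%, beside 0.869%). RUNX, further-type ETS, CREB and NFI letters were found in 0 of 95 windows, beside 2.34%, 2.16%, 0.891% and 0.0409% of all peaks. A match is no evidence of binding by a factor.

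**Figure D5:**
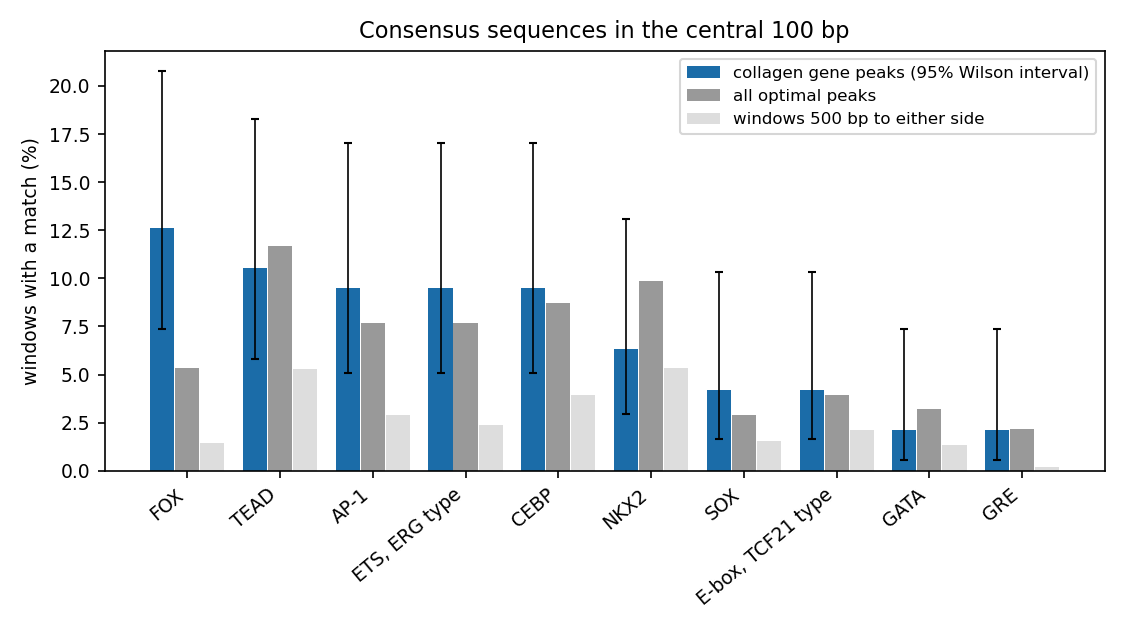
Percent of 100 bp windows with a match to the 10 most frequent consensus sequences, at collagen gene peaks, at all optimal peaks and 500 bp to either side of these. Error bars are 95% Wilson intervals over 95 collagen peaks; FOX is at 12.6% of them and at 5.35% of all peaks.

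Other genes of the collagen pathway also carried peaks, and the share with a peak ran from 52.6% to 100% over 4 lists, against 46.8% of all genes. Per 100 kb of territory, all genes had 2.29 peaks. The lists had 2.93 (hydroxylases, chaperones and export), 1.98 (processing and crosslinking), 2.74 (receptors) and 4.58 (fibril-associated proteins). Processing and crosslinking genes were thus below all genes per length of sequence in the optimal set. In replicates 1 and 2 alone they had 2.31 and 2.47, against 2.30 and 2.29. Of 19 genes for hydroxylases, chaperones and export, 10 had a peak (median 1), led by Serpinh1, the collagen chaperone HSP47, with 7, Colgalt2 with 6 and P3h2 with 4. Of 13 genes for processing and crosslinking, 8 had one (median 1), led by the procollagen proteases Adamts2 with 6 and Bmp1 with 5, and by Loxl4, a lysyl oxidase gene, with 4. Of 10 collagen receptor genes, 6 had one (median 3), led by the uptake receptor gene Mrc2 with 9 and the integrin genes Itga2 with 5 and Itga1 with 4. That lead depended on the list, since Mrc2 had 7 in replicate 1, 8 in replicate 2 and 4 in the conservative set. Ddr1, a collagen-binding receptor kinase gene, had 3 in the optimal set, 11 in replicate 1 and 6 in replicate 2, and Itgb1 had 4, 8 and 6. All 12 genes of fibril-associated proteins had one (median 2.5), led by Thbs2 with 10 and Sparc and Fmod with 6 each. Among the 4 collagen IV genes on these chromosomes, Col4a1 had 54 peaks, Col4a3 5, Col4a4 3 and Col4a2 1. Because Col4a1 and Col4a2 start next to each other, that split is by distance alone.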

How the data were processed

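EP300 ChIP-seq of whole newborn mouse lung gave 2 libraries of 1 group. The authors' notes, deposited beside the lists, give mm10 as the assembly, a peak list for either library and for the pool, and optimal and conservative sets thresholded on reproducibility (IDR). For the aligner, the caller and their versions, the answer is: not given in the sources used here. A signal deposited by the authors for each peak is its own strength, with scaling not stated. The score deposited by the authors with the thresholded sets and the q field were not used. Width was 424 bp for 96.9% of optimal peaks. The lists held 43988 optimal, 42473 conservative and 300000 peaks per library.

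The 16 peaks on sequences other than the 21 chromosomes were left out, which left 43972. Start sites were those of protein-coding transcripts in GENCODE vM21 (GRCm38.p6, the assembly of mm10), with the 5′ end of the gene for 85 genes without one, and ties went by symbol. Members, lists and consensus sequences were chosen with earlier results of these data known. Named in full were members with 5 or more peaks, the leading member of each type and the fibrillar genes, with 3 leading genes per other list; further sites and genes were named after their values were seen. Shares have 95% Wilson intervals where given. Alternatives covered other peak sets, distances, start sites and windows. The code was tested on simulated data. Python 3.11.15, numpy 2.4.6, pandas 2.3.3, scipy 1.17.1, pysam 0.24.0 and matplotlib 3.10.9 were used.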

Additional observations from a re-analysis of the deposited data

How the results depend on the processing

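No paired analysis was possible because both libraries belong to 1 group. The strongest peaks of either library alone gave 23 to 24 genes with a peak, 91 to 95 peaks and 6 genes with a promoter peak. Network genes with a peak numbered 1 to 2 and their mean 0.333 to 0.667.

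Shorter distances and smaller sets admit fewer peaks by construction. Within 10 kb of a TSS, 11 genes had 18 peaks (mean 0.474, median 0), with 3 fibrillar, 3 beaded filament, 0 network and 0 transmembrane genes and means of 0.273, 1.17, 0 and 0; FACIT had a mean of 0.556 and multiplexins 1.5. The stronger 50% of the optimal set gave 45 peaks (mean 1.18), 1 gene with a promoter peak, and means of 1.09 for fibrillar, 0 for network (0 genes), 0.778 for FACIT, 1.75 for transmembrane, 2.33 for beaded filament and 2.50 for multiplexin genes. Counting by gene body gave 52 peaks (mean 1.37, median 0), and means of 0.818 for fibrillar, 0 for network (0 genes), 0.667 for beaded filament (3 genes), 2.00 for multiplexin, 1.44 for FACIT and 5.25 for transmembrane genes, so that the transmembrane mean became the highest and the beaded filament mean fell below the fibrillar and FACIT means. Gene length was not adjusted for in the counts by gene body. The network peak was lost within 50 kb (0 genes, mean 0). Types XXVI and XXVIII had 1 gene with a peak (mean 0.5) by gene body, with no limit of distance and with the starts of every transcript. Promoters of 500 bp gave 3 genes with a promoter peak, while the conservative set gave 7. With the 5′ end of each gene as the TSS, 81 peaks were assigned, with 3 at Col15a1 and 3 at Col12a1. The transcripts of the GENCODE basic set, an alternative chosen after seeing the data, gave 85 peaks at 23 genes, with 3 at Col12a1 and 7 each at Col13a1 and Col14a1. Leaving out peaks inside another gene, also chosen afterwards, gave 92.

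The ratio to all genes turned with the divisor. Per 100 kb it was 0.832 for the family, 0.591 for fibrillar and 0.606 for FACIT genes, and per gene it was 1.49, 1.09 and 1.19. It was 2.54 per gene for transmembrane, 2.69 for beaded filament and 3.58 for multiplexin genes, against 1.11, 1.71 and 1.54 per 100 kb. In a further alternative chosen after seeing the data, the ratio per 100 kb was 0.577 for beaded filament genes without Col6a1 and Col6a2 and 0.679 for transmembrane genes without Col13a1. Leaving out the genes with most peaks lowers this ratio by construction. Matching to the whole list of a library raised the shared peaks to 91.6% for replicate 1 and 90.5% for replicate 2. Windows of 200 bp put TEAD (20%) and AP-1 (16.8%) letters above FOX (15.8%), with the TCF21-type E-box at 11.6%. The conservative set put AP-1 (12.8%) above FOX and CEBP (11.7% each), and KLF/SP at 0%. Shares over all peaks were not computed for either setting. The depth of the libraries was unknown, so a gene with 0 peaks is not shown to lack EP300.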

Other observations

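The pooled list of 300000 peaks, called before the reproducibility step, held sites within 100 kb of most collagen genes without an assigned optimal peak. Of these 15 genes, 13 had at least 1 peak in that list, and Col11a2 and Col9a3 had none. The share of all genes with a peak in that list was not computed, so 13 of 15 cannot be read as a trait of collagen genes. Among the 13 genes the best rank was 35180, at Col22a1, followed by 44827 at Col8a2 and 71545 at Col28a1. Col2a1, the main collagen of cartilage, had 3 such peaks, the best at rank 197009, and Col11a1 had 17, the best at rank 116599. The conservative set held 94 peaks assigned to collagen genes, 14 of which were not in the optimal set, so it was not a subset of it.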
